A study of Mus musculus with 20 samples.

Results

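Genes that glucocorticoids are known to switch on were followed in the lungs of mouse fetuses. These were Fkbp5, Tsc22d3, Klf9, Dusp1, Zbtb16, Errfi1, Cebpd, Ddit4, Bcl6 and Pdk4, 10 in all. They were taken as every probe set whose only gene symbol is one of these 10, which gave 23 of the 22690 probe sets on the array and 10 of the 12393 genes that have a probe set naming 1 gene. Left lung lobes of C57Bl6 fetuses gave the RNA for Affymetrix arrays, 1 animal per array, with 5 animals in each of 4 groups: GR ablation at E18.5, control at E18.5, GR ablation at E16.5 and control at E16.5. All animals carried the floxed glucocorticoid receptor gene (GR flox). The GR ablation animals (GRCol1-Cre) also carried a Cre recombinase, expressed from a BAC with the collagen type I alpha 2 locus, that deletes GR in mesenchymal cells, so that GR in the epithelium and endothelium of the lobe is not targeted, and the control animals kept GR in the mesenchyme.

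Glucocorticoids enter the cell, bind GR and carry it to the nucleus, where it binds DNA at glucocorticoid response elements, paired copies of the hexamer AGAACA facing each other. Fetal glucocorticoid levels climb before birth and are known to drive the thinning and maturation of the lung. The genes described here are induced in many cell types and act in separate places: Fkbp5 and Tsc22d3 feed back on GR signalling or inflammation, Dusp1 and Errfi1 shut down kinase signalling, Klf9, Zbtb16, Cebpd and Bcl6 are transcription factors, and Ddit4 and Pdk4 hold back growth and glucose use. Many of their known GR binding sites lie in introns or far from the start of transcription.

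Promoter windows of RefSeq (assembly GRCm38.p6), which run from 250 bases before to 50 bases after a transcription start, were matched by symbol to 8 of the 10 genes, with 12 windows in all, leaving Zbtb16 and Cebpd. The 4 windows printed here belong to the feedback gene Fkbp5, which changed in opposite directions with stage, to Tsc22d3 (of its 3 windows the one that holds AGAACA) and Dusp1, which fell without mesenchymal GR, and to Ddit4, for which no test passed. They are written 5′ to 3′ on the strand of the gene, and capitals mark each AGAACA, each E-box CACGTG and each cyclic AMP core TGACG, on either strand.
Fkbp5 chr17:28486100-28486399 (minus strand): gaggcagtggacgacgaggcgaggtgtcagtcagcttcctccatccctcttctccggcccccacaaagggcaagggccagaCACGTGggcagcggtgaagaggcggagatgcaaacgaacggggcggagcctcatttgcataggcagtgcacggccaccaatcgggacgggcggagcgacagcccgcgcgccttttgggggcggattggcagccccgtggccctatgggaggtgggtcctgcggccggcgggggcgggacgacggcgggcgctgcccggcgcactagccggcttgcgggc
Tsc22d3 chrX:140600473-140600772 (minus strand): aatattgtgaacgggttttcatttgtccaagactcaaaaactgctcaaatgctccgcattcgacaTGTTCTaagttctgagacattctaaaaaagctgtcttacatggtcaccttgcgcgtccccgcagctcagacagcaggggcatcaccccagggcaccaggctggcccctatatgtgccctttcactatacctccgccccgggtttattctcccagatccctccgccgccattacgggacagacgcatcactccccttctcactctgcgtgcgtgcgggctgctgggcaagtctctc
Dusp1 chr17:26508423-26508722 (minus strand): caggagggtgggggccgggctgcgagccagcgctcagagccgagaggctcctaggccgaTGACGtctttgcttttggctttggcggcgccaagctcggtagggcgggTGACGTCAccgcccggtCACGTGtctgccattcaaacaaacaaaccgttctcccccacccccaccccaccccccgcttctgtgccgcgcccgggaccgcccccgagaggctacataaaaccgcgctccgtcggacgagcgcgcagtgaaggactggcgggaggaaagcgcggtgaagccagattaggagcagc
Ddit4 chr10:59951721-59952020 (minus strand): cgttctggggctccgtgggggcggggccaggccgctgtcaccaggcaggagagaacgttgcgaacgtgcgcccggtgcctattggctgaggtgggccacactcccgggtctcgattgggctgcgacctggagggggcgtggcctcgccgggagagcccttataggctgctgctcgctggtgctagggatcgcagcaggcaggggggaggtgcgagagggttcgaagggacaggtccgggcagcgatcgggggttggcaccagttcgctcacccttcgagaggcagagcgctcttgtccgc

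The full element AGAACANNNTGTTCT was in 0 of the 12 windows, and in 0.00913% of the 32851 mouse promoter windows of the same length. The single hexamer AGAACA, counted on both strands, was in 2 of the 12, against 19.0% of all windows. Counted from the start of transcription, it begins at position -185 in the Tsc22d3 window printed above and at position -124 in a window of Bcl6, where the letters read TGTTCT on the strand of the gene. The E-box CACGTG was in 3 of 12 windows (7.15% of all), with copies at -169 in Fkbp5 and -126 in Dusp1. The cyclic AMP core TGACG, searched on both strands, was in 5 of 12 (20.8% of all). In the Dusp1 window the core occurs at -191 and, on both strands with an overlap, at -143 and -140. The GC box GGGCGG was in 7 of 12 (35.7% of all), with 4 copies in Fkbp5 and 1 in Ddit4, and it was searched on both strands but is not in capitals here. These matches describe letters in short windows and say nothing of binding elsewhere.

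Values are the authors' GCRMA expression values on a log2 scale, so that a difference of 1 is a doubling. A value at or below 4 is called dim. Of the 23 probe sets, 16 were above 4 on at least 5 of the 20 arrays, and each of the 10 genes had at least 1 such probe set. The brightest probe set of each gene was used, and differences were tested with limma over all 8068 genes that passed the same filter, with Benjamini-Hochberg adjustment and a threshold of 0.05. Pdk4 was above 4 on the 5 E18.5 controls and on no other array, and Zbtb16 on 4 E18.5 controls and 1 E16.5 control. Both passed the filter through the E18.5 controls, so a difference from that group was bound to appear, no p is given for it, and counts are given with and without them. Levels of different genes are not compared, since probes differ in brightness.

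Nr3c1, the gene of GR, was lower in every GR ablation array than in every control of its stage. It read 7.56 to 8.05 with GR ablation and 9.02 to 9.57 in controls at E18.5 (log2 difference -1.62, SE 0.17, limma adjusted p = 1.62e-06). At E16.5 it read 6.31 to 7.50 with GR ablation and 8.58 to 9.15 in controls (-1.72, SE 0.17, adjusted p = 1.66e-05). Whether its probes read the deleted exons was not tested. The lung label held: all 4 measured type II cell markers rose with stage in both genotypes. By Xist and Y-linked genes, 2 of 5 GR ablation and 3 of 5 control fetuses were female at E18.5, and 5 of 5 GR ablation and 1 of 5 control fetuses at E16.5, where sex and genotype largely coincide. E18.5 control replicate 3 stood apart. It was the lowest of its group in 9 of the 10 genes and the highest in Ddit4, and the mean of 4 mitosis markers was 10.5 there and 9.36 to 9.53 in the other E18.5 controls. Results that rest on it are given with and without it.

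**Figure D1:**
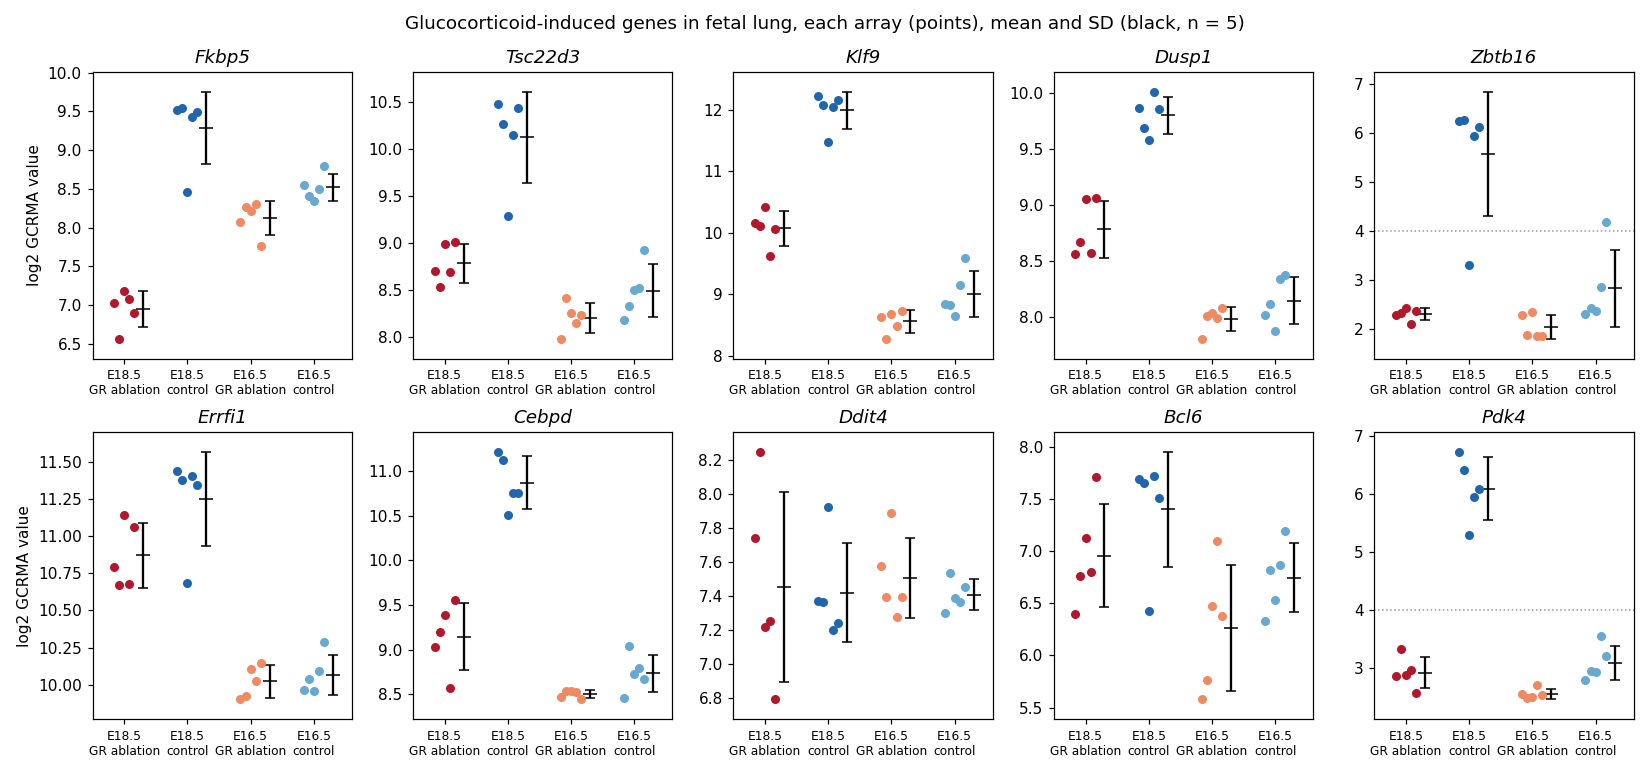
Log2 GCRMA value of each of the 10 genes (y axis, a separate scale for each gene) on each of the 20 arrays, by group (x axis). Points are arrays, black marks are group means with SD (n = 5), and the dotted line in the panels of Zbtb16 and Pdk4 is the value of 4, at or below which a reading is called dim. In 7 genes all 5 E18.5 GR ablation arrays lie below all 5 E18.5 controls, and the low control point in most panels is replicate 3.

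At E18.5, 8 of the 10 genes fell in lungs without mesenchymal GR and 0 rose. Across the array, 34.5% of the genes tested changed at this stage, 15.9% falling and 18.6% rising. In 7 genes (Fkbp5, Tsc22d3, Klf9, Dusp1, Zbtb16, Cebpd and Pdk4) all 5 GR ablation arrays lay below all 5 controls, which 9.13% of all genes tested did, and 5 of these remain without the dim genes Zbtb16 and Pdk4. The median log2 difference of the 10 was -1.53, and 0.03 over all genes. Without these 2 genes, 6 of 8 fell and the median was -1.18. Without E18.5 control replicate 3, 8 of 10 fell, with a median of -1.68, while 1504 of the 8068 genes tested fell in that fit. Since whole lobes were measured, fewer cells of a type and less RNA per cell cannot be told apart.

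Fkbp5, a co-chaperone that lowers the affinity of GR for its hormone, had the largest fall among the genes that were not dim, by the brightest probe set of each gene (2 less bright probe sets of Klf9 had larger differences). It read 7.03, 6.56, 7.18, 7.08 and 6.90 in the 5 GR ablation lungs, and 9.52, 9.55, 8.46, 9.43 and 9.49 in the 5 controls at E18.5. Every GR ablation value was more than 1 unit below every control value, including that of replicate 3, the low control. The difference was -2.34 (SE 0.18, limma adjusted p = 3.26e-08), which left 19.8% of the control level. A second, dim probe set of Fkbp5 averaged 2.26 with GR ablation and 3.48 in controls.

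Tsc22d3, also called GILZ, carries anti-inflammatory effects of glucocorticoids. It read 8.70, 8.53, 8.99, 8.70 and 9.01 with GR ablation, and 10.48, 10.27, 9.29, 10.15 and 10.43 in E18.5 controls. The groups did not overlap, though control replicate 3 lay closer to the GR ablation lungs than to the other controls. The difference was -1.34 (SE 0.18, limma adjusted p = 3.36e-05), and 39.5% of the control level remained. A second bright probe set of Tsc22d3 differed by -1.58 (SE 0.11).

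Dusp1, a phosphatase that switches off MAP kinases, also fell. It read 8.56, 8.67, 9.05, 8.57 and 9.07 in GR ablation lungs and 9.87, 9.68, 9.58, 10.01 and 9.85 in controls. No values overlapped, and replicate 3 was again the lowest control but close to the others. The difference was -1.02 (SE 0.12, limma adjusted p = 5.28e-06), with 49.4% of the control level left. Errfi1, an inhibitor of the EGF receptor, differed far less: it read 10.79, 10.67, 11.14, 10.68 and 11.06 with GR ablation and 11.43, 11.37, 10.69, 11.41 and 11.34 in controls. The ranges overlapped through control replicate 3 alone, which was below 3 of the GR ablation lungs. Errfi1 fell by 0.38 (SE 0.13, limma adjusted p = 0.0290) and kept 76.9% of the control level. This call was lost when any 1 of 7 E18.5 arrays was left out (GR ablation replicates 1, 2 or 4, or control replicates 1, 2, 4 or 5), with adjusted p of 0.0595 to 0.0784, and in a fit of the E18.5 arrays alone (adjusted p = 0.0917). Without control replicate 3 the difference was -0.52, and a second probe set of Errfi1 fell by 0.49 (SE 0.13, adjusted p = 0.00919).

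The transcription factors split. Klf9, a Krüppel-like factor also induced by thyroid hormone, read 10.16, 10.11, 10.42, 9.63 and 10.06 with GR ablation, and 12.23, 12.08, 11.47, 12.06 and 12.16 in controls. The groups were separated by about 1 unit at their nearest, between GR ablation replicate 3 and control replicate 3. Klf9 fell by 1.92 (SE 0.18, limma adjusted p = 2.93e-07), leaving 26.4% of the control level. Its 5 probe sets past the filter fell by 1.92 to 2.48.

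Cebpd, a C/EBP factor of the acute phase and of fat cell differentiation, read 9.03, 9.19, 9.38, 8.57 and 9.55 in GR ablation lungs and 11.21, 11.13, 10.50, 10.75 and 10.75 in controls. The groups did not overlap. It fell by 1.72 (SE 0.16, limma adjusted p = 2.76e-07), and 30.3% of the control level remained. Bcl6, a transcriptional repressor, read 6.39, 6.76, 7.13, 6.80 and 7.71 with GR ablation and 7.69, 7.66, 6.43, 7.72 and 7.51 in controls. Its ranges overlapped almost fully, with GR ablation replicate 5 high and control replicate 3 low. It did not pass (-0.44, SE 0.30, limma adjusted p = 0.262). Without control replicate 3 the Bcl6 difference was -0.69 (adjusted p = 0.0512).

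Zbtb16, the zinc finger factor PLZF, was dim in every GR ablation lung, at 2.27, 2.33, 2.42, 2.10 and 2.36, and read 6.23, 6.25, 3.31, 5.93 and 6.12 in the controls. In 4 controls Zbtb16 was clearly above the dim range and in replicate 3 it was not. Since 1 of the 5 controls was itself dim, no fold is given. A second, dim probe set of Zbtb16 averaged 2.00 with GR ablation and 2.19 in controls. Pdk4, a kinase that restrains pyruvate dehydrogenase, was also dim with GR ablation, at 2.86, 3.32, 2.87, 2.97 and 2.57, and read 6.72, 6.41, 5.29, 5.94 and 6.08 in controls. Here all 5 controls were above the dim range, and against the dim limit of 4 the control mean was at least 4.25-fold higher. Ddit4, an inhibitor of mTORC1 that is also raised by low oxygen and by stress, was spread widely: it read 7.75, 8.25, 7.22, 7.26 and 6.80 in GR ablation lungs and 7.37, 7.36, 7.92, 7.20 and 7.24 in controls. The GR ablation values reach beyond the controls on both sides, and the difference was 0.03 (SE 0.20, limma adjusted p = 0.920).

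Some other features of the lobe moved at the same stage, where 15.9% of all genes tested fell and 18.6% rose. The mean of 4 alveolar type I markers was 9.76 to 10.8 in GR ablation lungs and 11.0 to 11.7 in E18.5 controls, and all 4 of 4 markers fell. The mean of 4 endothelial markers was 9.49 to 9.71 with GR ablation and 9.79 to 10.1 in controls, with 3 of 4 lower. The mean of 4 mitosis markers was 9.91 to 11.1 with GR ablation and 9.36 to 10.5 in controls, with 4 of 4 higher. The GR ablation lungs were spread: replicates 3 and 5 read 10.1 and 9.91, and replicates 1, 2 and 4 read 10.9 to 11.1. Replicates 3 and 5 also had the highest type I means of their group, at 10.8 and 10.7. The mean of 6 mesenchymal markers was 11.8 to 12.2 with GR ablation and 12.0 to 12.7 in controls, with 2 of 6 lower. Without E18.5 control replicate 3 these 4 counts were the same, and the median difference of the mesenchymal markers was 0.05, against -0.14 with it. In the other marker lists, 0 of 4 type II, 0 of 3 macrophage, 0 of 3 cardiac muscle and 0 of 2 liver markers passed. Of the airway markers 1 of 4 fell, of smooth muscle 1 of 4, and the 1 erythroid marker tested fell. With E18.5 control replicate 3 left out, 2 of 4 airway and 0 of 4 smooth muscle markers fell, and the erythroid marker still fell. The part of such shifts in the results above was not tested.

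**Figure D2:**
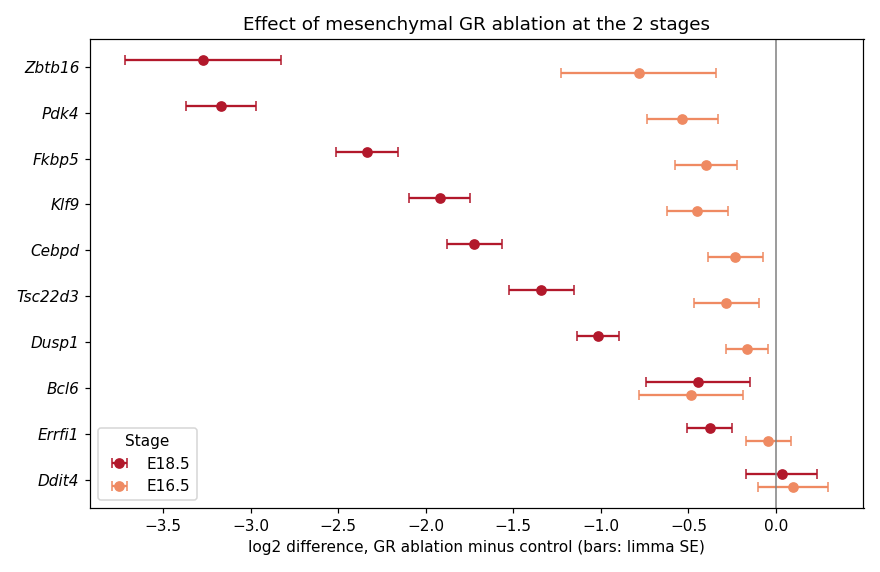
Log2 difference between GR ablation and control (x axis, limma estimate with SE) for each gene (y axis), at E18.5 (dark red) and at E16.5 (orange). At E18.5 the differences run from -3.27 in Zbtb16 to 0.03 in Ddit4, and at E16.5 from -0.78 in Zbtb16 to 0.10 in Ddit4; the values of Zbtb16 and Pdk4 rest on dim readings.

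At E16.5 none of the 10 genes passed the test (limma, 0 of 10, against 0.248% of all genes tested). At an unadjusted limma p under 0.05 there were 3 of 10 (Fkbp5, Klf9 and Pdk4), and 356 of 8068 over the array. Pdk4 was dim on all arrays of this stage, and without it Fkbp5 and Klf9 remain. The median difference of the 10 was -0.34, and -0.26 in the 8 genes other than Zbtb16 and Pdk4, beside 0.01 over all genes. All differences were negative except that of Ddit4, at 0.10.

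In Fkbp5 the 5 GR ablation lungs read 8.07, 8.27, 8.22, 8.30 and 7.76, and the 5 controls 8.55, 8.41, 8.35, 8.50 and 8.80. These groups did not overlap, by a narrow margin, and the difference of -0.40 (SE 0.18) did not pass (limma adjusted p = 1.00). Among all genes tested, 0.657% had every GR ablation array below every control, as Fkbp5 and Pdk4 had. Pdk4 was dim in both groups, at 2.48 to 2.71 with GR ablation and 2.80 to 3.54 in controls, so no fold is given.

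Klf9 read 8.64, 8.27, 8.68, 8.49 and 8.73 with GR ablation, and 8.84, 8.83, 8.64, 9.15 and 9.60 in controls. The ranges overlapped only at their edges, and control replicate 5 was the highest. The difference was -0.45 (SE 0.18, limma adjusted p = 0.839), and -0.30 without that control. Bcl6 read 5.58 to 7.10 with GR ablation and 6.33 to 7.19 in controls, a difference of -0.49 (SE 0.30). Tsc22d3 (-0.28), Cebpd (-0.23), Dusp1 (-0.16) and Errfi1 (-0.04) had overlapping groups. Zbtb16 was dim in all GR ablation lungs, at 1.85 to 2.33, and in 4 of 5 controls, with replicate 5 alone above the limit at 4.18. With sex in the fit these differences ran from -1.48 (Zbtb16) to 0.05 (Ddit4), and again 0 of 10 passed.

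The effect of GR ablation at E18.5 was tested against that at E16.5 as an interaction. It was more negative at E18.5 in 7 of 10 genes, where 4.78% of all genes tested changed in that direction and 8.4% in either. The difference of effects was -1.94 in Fkbp5 (SE 0.25, limma adjusted p = 8.87e-05), -1.49 in Cebpd (SE 0.22), -1.47 in Klf9 (SE 0.25), -1.06 in Tsc22d3 (SE 0.26) and -0.85 in Dusp1 (SE 0.17). In Pdk4 (-2.64) and Zbtb16 (-2.49) it rests on readings that are mostly dim outside the E18.5 controls, and leaving these genes out, 5 of 8 passed. It did not pass in Errfi1 (-0.34, SE 0.18, limma adjusted p = 0.266), Bcl6 (0.04) or Ddit4 (-0.06). Without E18.5 control replicate 3, Errfi1 passed too (-0.48, adjusted p = 0.0201), which makes 8 of 10, while the share of all genes tested that passed in either direction was 17.9% in that fit. With sex as a covariate, Tsc22d3 did not pass (-0.81, limma adjusted p = 0.122). Nor did Zbtb16 (-1.62), where the size again rests on mostly dim readings.

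The change from E16.5 to E18.5 was then read within each genotype. These comparisons use the same arrays as those between genotypes, so the E18.5 controls enter both, and the values are given side by side. In GR ablation lungs 5 of 10 genes rose with stage (28.7% of all genes tested rose) and 1 fell (27.6% fell). In control lungs 8 of 10 rose (35.3% of all genes tested rose) and 0 fell (35.5% fell). The median change was 0.61 in GR ablation lungs and 1.64 in controls, against 0.00 and -0.01 over all genes. Without the dim genes Zbtb16 and Pdk4, 5 of 8 rose and 1 fell in GR ablation lungs (median 0.67), and 6 of 8 rose in controls (median 1.41).

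Fkbp5 changed in opposite directions. In GR ablation lungs it fell by 1.17 (SE 0.18, limma adjusted p = 2.21e-05) to 0.444 of its E16.5 level, with all 5 E18.5 values below all 5 E16.5 values. In controls it rose by 0.77 (SE 0.18, adjusted p = 0.000768), or 1.70-fold. Control replicate 3 at E18.5 lay inside the E16.5 control range, and without it the control rise was 0.97. The order of Fkbp5 group means was therefore E18.5 GR ablation, E16.5 GR ablation, E16.5 control and E18.5 control, from low to high, and only the last neighbouring pair overlapped in range.

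Klf9 rose in both genotypes, by 1.52 (2.86-fold) in GR ablation lungs and by 2.99 (7.94-fold) in controls. Its E18.5 GR ablation lungs, at 9.63 to 10.42, were above all 5 E16.5 controls, at 8.64 to 9.60, and below all 5 E18.5 controls. Dusp1 did the same, with a rise of 0.80 (1.74-fold) in GR ablation lungs and 1.65 (3.15-fold) in controls. Cebpd rose by 0.64 (1.56-fold) with GR ablation and 2.13 (4.38-fold) in controls, and Tsc22d3 by 0.58 (1.49-fold) with GR ablation and 1.63 (3.11-fold) in controls. Errfi1 rose by 0.85 (1.80-fold) with GR ablation and 1.18 (2.27-fold) in controls. In each of these 5 genes all 5 E18.5 arrays were above all 5 E16.5 arrays within both genotypes. Counting Pdk4, 6 genes did so in controls (25.9% of all genes tested), and 5 did so in GR ablation lungs (22.1%), where Fkbp5 alone had all E18.5 values below (20.3%).

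Pdk4 was dim in GR ablation lungs at both stages, and in controls it was at least 4.25-fold higher at E18.5 than at E16.5. Zbtb16 was likewise dim in all 10 GR ablation lungs. In controls it read 3.31 to 6.25 at E18.5, with 1 of 5 dim, and 2.30 to 4.18 at E16.5, with 4 of 5 dim, so no fold is given. Bcl6 rose by 0.70 with GR ablation and 0.65 in controls on average, neither of which passed (limma adjusted p = 0.0529 and 0.0565). Without E18.5 control replicate 3 both passed by limma, at 0.70 (adjusted p = 0.0266) with GR ablation and 0.90 (adjusted p = 0.00672) in controls. That array is no part of the GR ablation difference, which stayed at 0.70. It enters there only through the estimate of spread that all groups share. Ddit4 differed by -0.05 and 0.01 between stages (SE 0.20 each). Without that replicate, 6 of the 10 genes rose in GR ablation lungs and 9 of 10 in controls. Over the array, 2402 and 2865 of the 8068 genes tested rose in that fit.

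**Figure D3:**
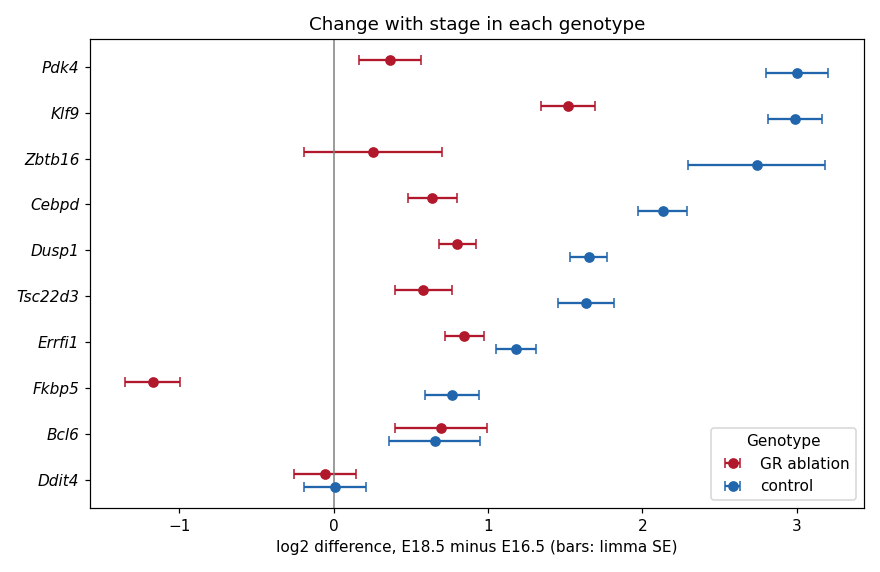
Log2 difference between E18.5 and E16.5 (x axis, limma estimate with SE) for each gene (y axis), in GR ablation (red) and control (blue) lungs. Fkbp5 lies at -1.17 in GR ablation lungs and at 0.77 in controls, and Errfi1 at 0.85 in GR ablation lungs and at 1.18 in controls.

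Where a gene had several probe sets past the filter, they were set side by side. In Klf9 the stage change ran from 0.80 to 1.67 over 5 probe sets in GR ablation lungs and from 2.85 to 3.31 in controls. The 2 probe sets of Tsc22d3 gave an interaction of -1.06 and -1.35, and those of Errfi1 -0.34 and -0.57, the last with an adjusted p of 0.0702 over the 12517 probe sets tested. The 7 probe sets that failed the filter peaked at 4.01 on any array. Of these, the dim Fkbp5 probe set differed by -1.22 between genotypes at E18.5, and those of Tsc22d3, Klf9, Zbtb16, Cebpd and Bcl6 by -0.28 to -0.00.

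**Figure D4:**
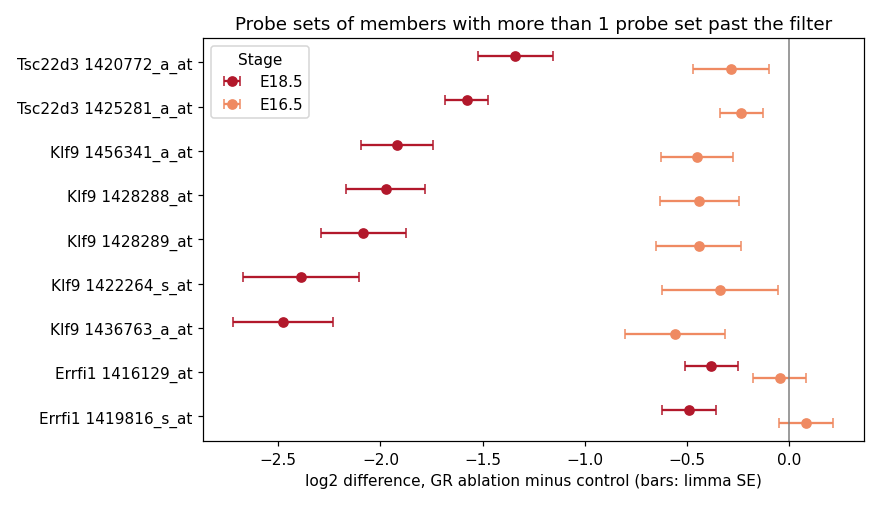
Log2 difference between GR ablation and control (x axis, limma estimate with SE) for each probe set past the filter of Tsc22d3, Klf9 and Errfi1 (y axis), at E18.5 (dark red) and E16.5 (orange). At E18.5 all 9 lie below 0, with Klf9 at -1.92 to -2.48, Tsc22d3 at -1.34 and -1.58, and Errfi1 at -0.38 and -0.49.

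Within groups, the genes other than Ddit4 tended to vary together, in part through E18.5 control replicate 3. Over the 20 arrays, after subtraction of group means, the Pearson correlation had a median of 0.50 over the 45 pairs of members (from -0.56 to 0.87), and 0.01 over all pairs of genes tested. It was highest for Tsc22d3 with Errfi1 and lowest for Errfi1 with Ddit4, whose median with the other genes was -0.50. These are descriptions, since the points share arrays. Much of the size rests on E18.5 control replicate 3: without it, the median over the 45 pairs was 0.30 on 19 arrays. E16.5 control replicate 5 was the highest of its group in 7 of 10 genes.

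**Figure D5:**
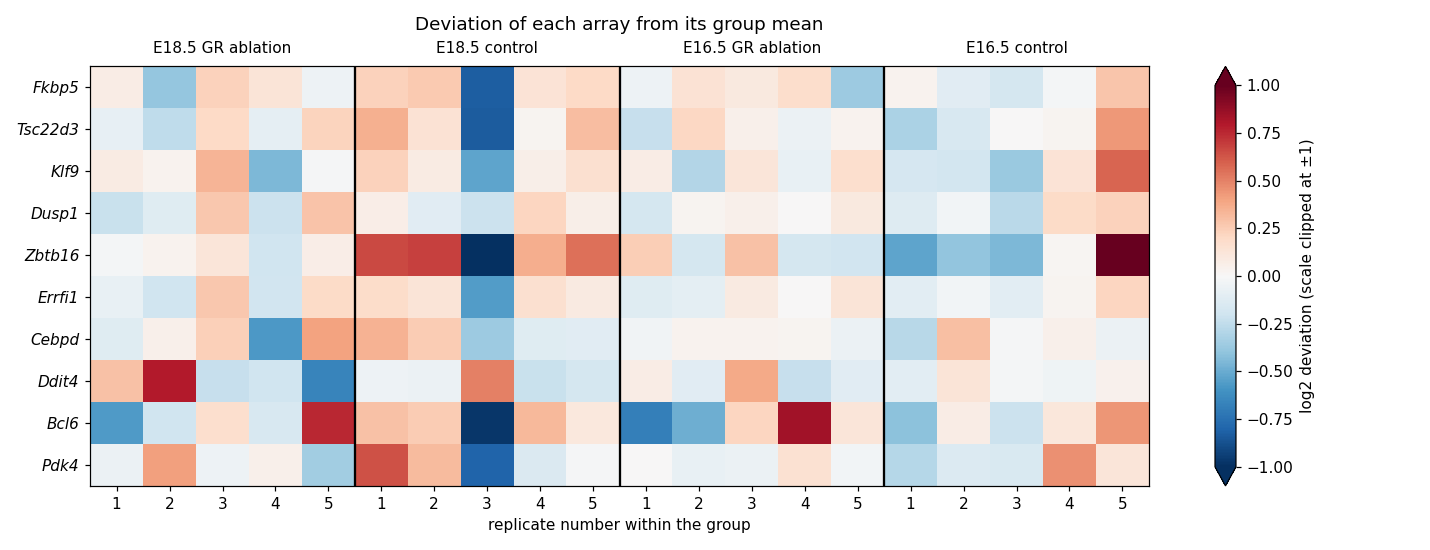
Deviation of each array from its group mean on the log2 scale (colour, clipped at 1 unit) for each gene (rows) and array (columns, by group and replicate). E18.5 control replicate 3 is low in 9 genes and high in Ddit4, and E16.5 control replicate 5 is the highest of its group in 7.

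Further genes known to be raised by glucocorticoids were read from the same fit. Of 22 tested (26 on the array), 16 fell and 2 rose at E18.5, where 15.9% of all genes tested fell and 18.6% rose. The median was -0.78, with Lcn2, an iron-binding defence protein (-3.52, SE 0.73), the sulfotransferase Sult1a1 (-2.52, SE 0.39), the clock repressor Per1 (-2.50, SE 0.27) and the engulfment receptor Mertk (-2.10, SE 0.29) as the largest. At E16.5, 2 of the 22 fell (0.248% of all genes tested changed), Per1 (-1.53, SE 0.27) and Hif3a, a hypoxia-inducible factor subunit (-1.35, SE 0.23). Sex and genotype largely coincide at that stage, and with sex in the fit 8 genes passed over the array (20 as reported). The values of Per1 and Hif3a in that fit are not given here, nor are those of Hsd11b1 and Lpar1 below. With stage, 16 of 22 rose and 2 fell in GR ablation lungs (28.7% of all genes rose and 27.6% fell), with the metal-binding proteins Mt1 and Mt2 up by 2.19 and 2.29. In controls 18 rose and 3 fell (35.3% and 35.5% of all genes), with the phosphatidate phosphatase Lpin1 up by 2.33. In the interaction, where 4.78% of all genes were lower and 8.4% passed in either direction, 3 were lower (Lcn2 -3.48, the cell cycle inhibitor Cdkn1a -1.57 and Mertk -1.38) and 2 higher, among them Angptl4, a lipase inhibitor (0.78). Without E18.5 control replicate 3, 8 were lower there, while the genes lower over the whole array numbered 694 in that fit, against 386 with it.

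Of 13 tested genes of the receptor machinery, 2 fell and 4 rose at E18.5 (15.9% and 18.6% of all genes tested). Besides Nr3c1, the enzyme Hsd11b1, which regenerates active hormone, fell by 4.12 (SE 0.43), while the co-chaperone Fkbp4 (0.39, SE 0.09) and the chromatin remodeller Smarca4 (0.38, SE 0.10) rose. At E16.5, where 0.248% of all genes tested changed, the 2 that fell were the same pair, and Hsd11b1 fell by 3.52. The interaction passed in 0 of 13 by limma, and in 8.4% of all genes tested. Of 20 genes that glucocorticoids are known to repress, 4 passed the filter; at E18.5 the growth factor Csf2 (-1.48) and the adhesion molecule Icam1 (-0.43) fell, and the adhesion molecule Vcam1 (0.51) and the chemokine Ccl2 rose. Ccl2 was dim on average in both E18.5 groups, so no size is given.

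Among 35 tested relatives of the 10 genes by family, 13 fell and 2 rose at E18.5 (15.9% and 18.6% of all genes tested), with a median of -0.22, led by Klf15 (-2.41, SE 0.38), Klf13 (-1.19, SE 0.14), Klf2 (-1.12, SE 0.22) and Klf4 (-1.06, SE 0.25), all Krüppel-like factors as Klf9 is. At E16.5 none passed by limma (0 of 35, against 0.248% of all genes tested), with Klf13 at -0.65 (adjusted p = 0.0856). Of 17 tested direct partners and substrates of the members, 2 fell (the kinases Mapk14, -0.26, and Mapk9, -0.25) and 1 rose (the kinase Mapk8, 0.65) at E18.5. These 3 of 17 are a smaller share than the 34.5% of all genes tested that changed at this stage, and none passed at E16.5.

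By Pearson correlation over the 20 arrays, the 5 other genes most like the mean of the 10 standardized genes were Klf15 (0.98), the hyaluronan receptor Lyve1 (0.98), xanthine dehydrogenase Xdh (0.98), the glutathione transferase Gstm2 (0.98) and the dipeptidase Dpep1 (0.97). For single genes the nearest were Lpar1 for Fkbp5 (0.91), Abhd17c for Tsc22d3 (0.99), Il6ra for Klf9 (0.99), Spon1 for Dusp1 (0.99), Tgm2 for Zbtb16 (0.97), Tmem50b for Errfi1 (0.99), Bmp6 for Cebpd (0.98) and Slc10a6 for Pdk4 (0.98). Bcl6 was nearest to Cpeb2 (0.91) and Ddit4 to Idh3g, at 0.71 the weakest of these. The arrays share groups, so these values follow the group means. Lpar1, the lysophosphatidic acid receptor nearest to Fkbp5, fell with stage in GR ablation lungs (-0.57) and rose in controls (0.71). It was picked by correlation with Fkbp5 over these same arrays, so the choice itself favoured a like pattern. At E16.5 the GR ablation difference was -0.71 in Lpar1 (limma adjusted p = 0.00571) and -0.40 in Fkbp5 (adjusted p = 1.00), and whether these differ was not tested.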

How the data were processed

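Affymetrix arrays of 20 left lung lobes, 5 animals in each of 4 groups, were analysed. The deposited values are on a log2 scale and were made by the authors with GCRMA, per the submitters' processing notes, a method that corrects background, scales arrays to each other and gives 1 value per probe set. The sources used here do not give its version. Array medians were 5.70 to 5.87. Precision is limited by the 5 arrays per group.

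Of 22690 probe sets, 20380 name 1 gene. Per gene, the probe set with the highest mean was used. Genes above 4 on at least 5 of 20 arrays were tested (8068). The 4 group means were fitted to the 20 arrays together by limma 3.58.1 in R 4.3.3, two-sided, with Benjamini-Hochberg adjustment over all genes tested. The code was tested on simulated data. Alternatives covered the arrays in the fit, filters, scaling, probe set choice, variance models, array weights, a replicate block, sex, thresholds and each array left out.

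The 10 genes and the other lists were chosen with earlier results of these data known. All 10 were named in every comparison. Of each other list, up to 4 called genes with the largest change per comparison were eligible, of which examples are given, and the nearest genes by correlation. Lpar1 stage values were added after its values were seen. Promoters are from RefSeq. Figures were drawn with matplotlib 3.10.9.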

Additional observations from a re-analysis of the deposited data

Results flagged for a closer look

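In 7 of 40 sets of 5 arrays (10 genes in 4 groups), E18.5 control replicate 3 lay far from the other 4 controls of its stage. It was the lowest in Fkbp5 (8.46), Tsc22d3 (9.29), Klf9 (11.47), Zbtb16 (3.31), Errfi1 (10.69) and Bcl6 (6.43), and the highest in Ddit4 (7.92). In 1 further set, Zbtb16 in E16.5 controls, replicate 5 was the highest at 4.18. Chance alone puts a sample this far out in about 1 of 20 sets, and the 7 sets share 1 animal.

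The effect of GR ablation differed between E18.5 and E16.5 in 7 of 10 genes by limma's interaction test. Over all genes tested 8.4% passed, and 4.78% in the same direction as these 7. The effect at E18.5 minus that at E16.5 was -1.94 in Fkbp5, -1.06 in Tsc22d3, -1.47 in Klf9, -0.85 in Dusp1, -2.49 in Zbtb16, -1.49 in Cebpd and -2.64 in Pdk4. In Zbtb16 and Pdk4 these sizes depend on dim readings, and without these 2 genes 5 of 8 passed. Sex and genotype largely coincide at E16.5. With sex as a covariate Tsc22d3 and Zbtb16 did not pass, and 403 genes passed over the array, against 678 as reported.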

How the results depend on the processing

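Over 13 other settings and 20 fits that each left out 1 array, the count of the 10 genes that fell at E18.5 was 7 to 8 (8 as reported), and 0 passed at E16.5 in every one. The count that rose with stage was 4 to 7 in GR ablation lungs (5 as reported, and 5 to 6 with 1 array left out), where 1 fell throughout, and 7 to 9 in controls (8 as reported, and 8 to 9 with 1 array left out). The interaction count was 5 to 8 in 12 settings (7 as reported, and 7 to 8 with 1 array left out). No direction of a called gene reversed. The labels do not say that a replicate number marks a shared litter or batch. Same-numbered arrays' deviations correlated from -0.43 to 0.60, and at least 1 of 5 was negative in every pair of groups, so the numbers were not taken as pairs. Between the E16.5 groups, 4 of 5 were positive, from 0.17 to 0.60, and a shared batch there was not tested. With the replicate number as a block, 0 passed at E16.5, 8 fell at E18.5, 6 rose and 1 fell with stage in GR ablation lungs, 9 rose in controls and 7 passed in the interaction; the only calls it changed were those of Bcl6 with stage, at 0.70 (adjusted p = 0.0374) in GR ablation lungs and 0.65 (adjusted p = 0.0402) in controls, by limma. With array weights Errfi1 passed the interaction test (-0.48, adjusted p = 0.00861). Averaging all probe sets of a gene, dim ones included, brought the E18.5 difference to -0.86 in Cebpd, -1.59 in Klf9 and -0.99 in Tsc22d3, and left Zbtb16 untested, as did a filter at 5. Over the array, 9 to 43 genes passed at E16.5 under the other settings besides sex (20 as reported), and 8 with sex; at E18.5 a threshold of 0.01 gave 1645 and a minimum change of 1.5-fold 1060 (2784 as reported). That minimum gave 2057 with stage in GR ablation lungs (4538 as reported) and 3171 in controls (5718 as reported). The interaction gave 678 genes as reported, 2244 with array weights, 403 with sex, 166 at 0.01, and 393 to 1445 with 1 array left out, the most without E18.5 control replicate 3. Readings of 4 or below limit what can be said of Zbtb16 and Pdk4 outside the E18.5 controls.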
